A study of Mus musculus with 4 samples.

Results

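The nuclear genes that encode subunits of the oxidative phosphorylation (OXPHOS) system were followed in the skin of GSDMD KO and WT mice after bleomycin (BLM) treatment. They were taken by name from the deposited gene table: names that begin with Nduf and a subunit letter and number for complex I, Sdha to Sdhd for complex II, Uqcr for complex III, Cox4 to Cox8 for complex IV and Atp5 for complex V, leaving out assembly factors of the Ndufaf kind. This gave 83 of 24441 genes, 37 for complex I, 4 for complex II, 8 for complex III, 18 for complex IV and 16 for complex V. The rule uses names only, so it also holds Cox7a2l, described as a factor that joins complexes into supercomplexes. It likewise holds Atp5s, a factor named for ATP synthase that is no structural subunit, whereas the subunit genes Cyc1 and Ndufab1 lie outside it. Ndufa4 is counted with complex I by its name, although its product is now placed in complex IV. The subunits encoded by mitochondrial DNA were not analysed here.

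RNA was sequenced from skin lesions of female C57BL/6 mice, 2 GSDMD KO and 2 WT, labelled 8 weeks of age. Both groups had received BLM, a cytotoxic antibiotic that causes skin fibrosis, by injection under the skin every other day for 28 days, and no library of skin without BLM was used here. GSDMD, the protein that forms membrane pores in pyroptosis, had been deleted by injection of Cas9 mRNA and guide RNA into C57BL/6 zygotes, so the deletion is not limited to a cell type. The comparison asks how the skin transcriptome of BLM-treated mice differs without GSDMD. The values are FPKM, fragment numbers divided by transcript length and library depth, which allow levels to be compared between genes.

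Complexes I to IV of the inner mitochondrial membrane pass electrons from NADH and succinate to oxygen, and complexes I, III and IV pump protons as they do so. Complex V, the ATP synthase, uses the returning protons to make ATP. Complex II is also an enzyme of the citrate cycle and is the only complex whose subunits are all encoded in the nucleus. Skeletal muscle, including the thin muscle sheet under mouse skin, is rich in these complexes and uses its own isoforms of several complex IV subunits, whereas epidermis and dermal fibroblasts hold fewer mitochondria.

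Some features of the libraries bear on every value below. The deleted gene, Gsdmd, stood at 14.0 and 18.2 FPKM in WT against 3.53 and 2.26 FPKM in KO, and by limma the adjusted p of its log2 fold change, -2.14 ± 0.29 (standard error, SE), was 0.248. The 2 KO libraries differed strongly from each other. Fibroblast markers had a median difference from the WT mean of 0.80 on the log2 scale in KO replicate 1 and of -2.71 in KO replicate 2, and the median of hair follicle markers was 4.37 in KO replicate 1 and 0.51 in KO replicate 2. Of 15 Y-linked genes, 4 were above 0 in KO replicate 2, with a sum of 1.78 FPKM, against 0 genes in each of the remaining libraries. All animals are labelled female. Xist, transcribed from the inactive X chromosome, stood at 17.8 and 13.5 FPKM in WT against 26.6 and 48.4 FPKM in KO. Results are therefore given for each KO library as well as for the group, and their part in the results was not tested. In bulk tissue, fewer cells of a type and less RNA per cell cannot be told apart.

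Promoter sequence is shown first for a few members, because this gene family is known for promoters that bind NRF1, GABP, YY1 and ERR factors. RefSeq windows of 300 bases around the gene start (build GRCm38.p6, a later build than the mm9 of the gene table) were found for 68 of the 83 genes, 66 by symbol and 2 by synonym. The NRF1 letters, GCGC and TGCGC with any base between them, were present on either strand in 17 of the 68 windows (25%), against 5.19% of the windows of 27025 genes and 10.9% of the windows of 10122 tested genes. The ETS letters bound by GABP, CCGGAAG, were present in 16 member windows (23.5%), against 9.93% of all windows and 19.2% of those of tested genes. The YY1 motif was held by 10 member windows (14.7%), against 3.19% of all windows and 5.06% of those of tested genes, and the ERR motif by 2 (2.94%), against 0.466% and 0.346%. The motifs can overlap, and 37 windows held at least 1 of them. A match describes the letters of a window and is not evidence of a bound site.

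The 100 bases before the gene start are printed 5′ to 3′ for 5 members with capitals where a motif was found. The 5 genes were picked by hand, not by a rule. Ndufa8 shows the NRF1 letters on the printed strand, and Sdha shows them 3 times on the reverse strand. Cox6a1 shows the ETS letters on the reverse strand, and its window also held the NRF1 letters. Cox7a1 and Cox8b, both muscle isoform genes, held none of the 4 motifs in the window. At least 1 motif was held by 37 of the 68 windows, so other members lacked all 4 as well. Sdha lies on the minus strand at chr13:74350241-74350340, Ndufa8 on the minus strand at chr2:36049339-36049438, Cox6a1 on the minus strand at chr5:115348959-115349058, Cox7a1 on the plus strand at chr7:30184071-30184170 and Cox8b on the minus strand at chr7:140900447-140900546.
Sdha: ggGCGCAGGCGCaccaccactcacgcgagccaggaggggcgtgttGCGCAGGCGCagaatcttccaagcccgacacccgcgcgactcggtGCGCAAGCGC
Ndufa8: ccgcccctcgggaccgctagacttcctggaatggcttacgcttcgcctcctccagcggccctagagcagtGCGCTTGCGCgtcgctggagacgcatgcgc
Cox6a1: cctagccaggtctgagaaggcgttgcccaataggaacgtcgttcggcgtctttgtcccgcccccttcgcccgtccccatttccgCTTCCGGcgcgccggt
Cox7a1: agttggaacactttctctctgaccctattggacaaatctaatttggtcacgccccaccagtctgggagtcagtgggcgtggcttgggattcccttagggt
Cox8b: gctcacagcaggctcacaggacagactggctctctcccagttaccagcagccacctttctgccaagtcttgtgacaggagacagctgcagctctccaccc

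OXPHOS subunit genes were among the abundant transcripts of this skin. Of the 81 genes that were tested, 78 had a mean of at least 40 FPKM in both groups, and all 81 were above 0 in every library. Cox7b2 and Cox8c, isoforms known from testis, were listed at 0 in all 4 libraries and were the 2 members not tested. The 83 genes together made up 6.72% and 6.22% of all FPKM in the WT libraries, 5.27% in KO replicate 1 and 6.43% in KO replicate 2, so the groups overlapped in the summed level. Atp5e, the small epsilon subunit of the ATP synthase, had the highest group means, 1239 ± 148 FPKM in WT and 1082 ± 116 FPKM in KO (SD, n = 2). The depth is not part of the table. From the steps in which low values rise it was estimated at about 12800000 to 17500000 fragments per library, which puts about 2369 fragments on the median member in the library that holds fewest of it.

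Most OXPHOS subunit genes had lower values in GSDMD KO skin, and none passed the threshold. At the study's limits (adjusted p under 0.05, log2 fold change beyond 1 in either direction), 0 of 81 members were called, and 0 of 13027 genes over the whole table (0%). With an unadjusted p under 0.05, 2 members were lower (2.47%), Sdha and Uqcrc1, against 6.22% of all genes, and 0 were higher, against 10.9% of all genes. With median-ratio scaling of the libraries 7 members were lower, against 8.57% of all genes. With the replicate number as a block 0 members were lower, against 6.39% of all genes. The log2 fold change was under 0 in 62 members and above 0 in 19, with a median of -0.20, whereas the median of all genes tested was 0.11. The groups did not overlap in 32 members with lower values in KO (39.5%), against 20.5% of all genes, and in 2 members with higher values in KO (2.47%), against 35.3% of all genes. The SE of a member's fold change, which limma moderates over all genes tested, had a median of 0.27, larger than the median fold change itself. The smallest p that an exact permutation test (two-sided) allows for 2 against 2 mice is 0.333.

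The complexes differed in how far their medians lay from 0. The median log2 fold change was -0.24 for complex I (31 of 37 genes lower), -0.44 for complex II (4 of 4), -0.17 for complex III (6 of 8), -0.05 for complex IV (9 of 16 tested genes) and -0.12 for complex V (12 of 16). Groups that did not overlap, with KO below WT, were found in 20 of 37 genes of complex I, 3 of 4 of complex II, 1 of 8 of complex III, 4 of 16 of complex IV (25%) and 4 of 16 of complex V (25%). Over all genes this share was 20.5%, so in this direction the counts of complexes IV and V were near the background. That of complex III, 12.5%, was under it. Without overlap and with KO above WT, the share was 0% in complexes I, II and III and 6.25% in complexes IV and V. Over all genes it was 35.3%. These differences between complexes were not tested, since genes are not replicates of a condition.

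**Figure D1:**
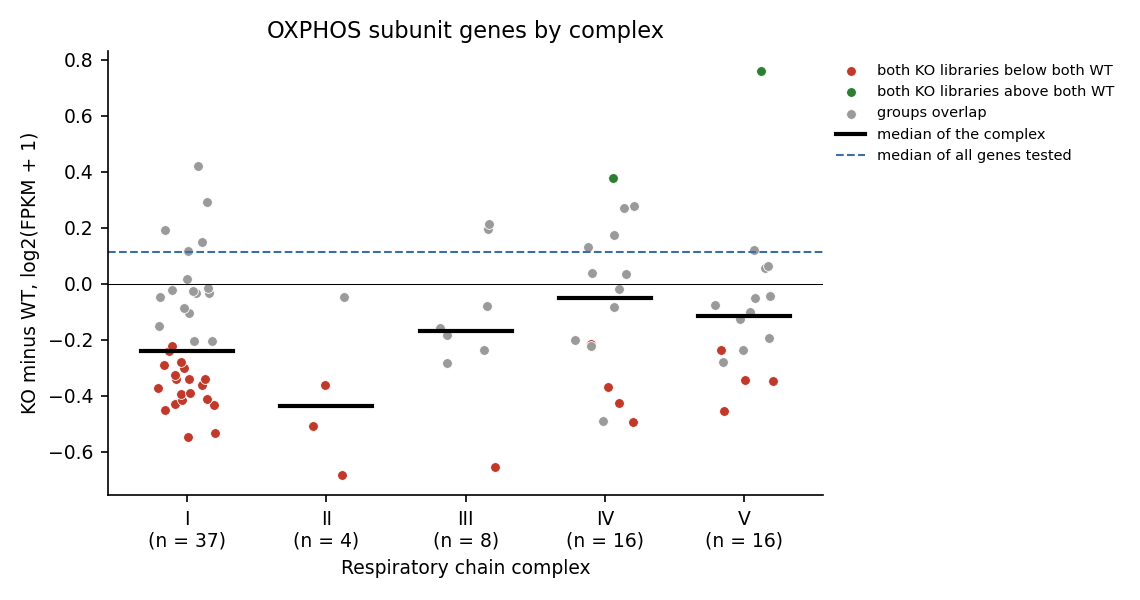
Difference between GSDMD KO and WT mice on the log2(FPKM + 1) scale (vertical axis) for each tested OXPHOS subunit gene, by complex (horizontal axis). Points are genes, coloured by whether the 2 KO and 2 WT libraries overlap, black bars are the medians of the complexes and the dashed line is the median of all genes tested, 0.11. The medians of all 5 complexes lie below that line, and complex II has the lowest, -0.44.

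KO replicate 1 lay further below the WT mice than KO replicate 2. Against the WT mean, the median member stood at -0.33 on the log2 scale in KO replicate 1 and at -0.03 in KO replicate 2. KO replicate 1 was below both WT libraries in 64 of 81 members (79.0%, against 26.6% of all genes). KO replicate 2 was below both in 34 members (42.0%, against 36.9% of all genes), which is near the background, and above both in 28 (34.6%, against 49.3%). KO replicate 1 was the lower of the KO libraries in 72 members. In complex II both KO libraries had a median below the WT mean, -0.65 and -0.23, as in complex I, -0.41 and -0.08. In complexes III and V the median of KO replicate 2 was above the WT mean, 0.04 and 0.08, and in complex IV it was -0.0018. Without KO replicate 1 the median of complex III was thus 0.04 in place of -0.17, and that of complex II -0.23 in place of -0.44.

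Complex I takes electrons from NADH, and its core subunits carry the flavin and the iron-sulfur clusters. Ndufv1, which binds NADH and FMN (mm9 chromosome 19 from 4007499 to 4012755, 10 exons), had 144 and 160.1 FPKM in WT against 111 and 97.0 FPKM in KO. The groups did not overlap, and its log2 fold change was the lowest in complex I, -0.55 ± 0.23 (SE, adjusted p = 0.311 by limma). This rank was not stable. With length and GC trends removed Ndufs1 was lower (-0.57 against -0.51), and without KO replicate 2 Ndufs7 was lower (-0.68 against -0.45). Ndufs7, a cluster-bearing subunit next to the quinone site (chromosome 10 from 79712197 to 79719537, 8 exons), had 293 and 334 FPKM in WT against 195 and 239 FPKM in KO, with a log2 fold change of -0.53 ± 0.25 (SE, adjusted p = 0.339). The groups again did not overlap.

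Ndufs1, the largest subunit, had 59.5 and 54.0 FPKM in WT against 40.5 and 52.6 FPKM in KO, so that KO replicate 2 lay just under the lower WT library. Ndufs3 (205.6 and 179.6 FPKM in WT against 138 and 176 FPKM in KO) showed the same order of libraries, but it has 1 near-identical copy elsewhere in the genome and its exons overlap Kbtbd4 on the other strand, so its reads may be divided. Ndufv2, the partner of Ndufv1, was the only core gene whose groups overlapped. It had 126 and 92.7 FPKM in WT against 86.6 and 129 FPKM in KO, and its log2 fold change was -0.03 ± 0.32 (SE). This value was unstable, at -0.40 with length and GC trends removed, 0.19 without WT replicate 1 and 0.25 without KO replicate 1.

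In all, the 7 core genes, a list set after their values had been seen, had a median log2 fold change of -0.36 and did not overlap in 6 genes, with KO below WT. The 30 accessory genes had a median of -0.20, with 24 lower and 14 not overlapping (46.7%), where the share over all genes was 20.5%. Against the WT mean, the median of the core genes was -0.48 in KO replicate 1 and -0.14 in KO replicate 2, and that of the accessory genes -0.35 and -0.03. Ndufb8, an accessory subunit often used as a protein marker of complex I, had 451 and 538 FPKM in WT against 315 and 412 FPKM in KO, and Ndufa9 had 115 and 123 FPKM in WT against 82.1 and 100.1 FPKM in KO, both without overlap.

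At the other end of complex I were small accessory subunits of its membrane arm. Ndufc1 had 335 and 119 FPKM in WT against 228 and 314 FPKM in KO, and its log2 fold change of 0.42 had an SE of 0.54. The WT libraries lay farther apart than the group means, and without WT replicate 2 the value was -0.33. Ndufc2 had 177 and 132 FPKM in WT against 153 and 229.95 FPKM in KO (log2 fold change 0.29 ± 0.32, SE, and -0.0042 without KO replicate 2), which also overlapped. Ndufa4 was the most abundant gene with a complex I name, at 1032 and 683 FPKM in WT against 779.8 and 865 FPKM in KO, and its log2 fold change was -0.03. It ran from -0.36 with length and GC trends removed and -0.33 without WT replicate 2 to 0.26 without WT replicate 1.

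Complex II oxidises succinate and hands its electrons to ubiquinone. Sdha, its flavoprotein, which holds the active site (chromosome 13 from 74459703 to 74487688, 15 exons), had 181 and 193 FPKM in WT against 115 and 117 FPKM in KO. The groups were far apart relative to their spread, and the log2 fold change of -0.68 ± 0.22 (SE, unadjusted p = 0.028, adjusted p = 0.262 by limma) was the lowest of all members. This rank depended on single libraries. Uqcrc1 was lower without KO replicate 1 (-0.78 against -0.67 for Sdha), and Cox7a1 was lower without WT replicate 2 (-0.89 against -0.64). Sdhb, the iron-sulfur subunit (chromosome 4 from 140517186 to 140535113, 8 exons), had 219 and 209 FPKM in WT against 133 and 169 FPKM in KO, with a log2 fold change of -0.51 ± 0.25 (SE, adjusted p = 0.348).

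The 2 membrane anchors of complex II were closer to WT. Sdhd had 189.8 and 200.4 FPKM in WT against 127 and 180.3 FPKM in KO, and Sdhc had 212 and 184 FPKM in WT against 168 and 218 FPKM in KO. Sdhd was lower in both KO libraries by a narrow margin in KO replicate 2, and Sdhc overlapped, with a log2 fold change of -0.05 (0.14 without KO replicate 1).

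Complex III passes electrons from ubiquinol to cytochrome c. Uqcrc1, a core subunit on its matrix side (chromosome 9 from 108838661 to 108851686, 13 exons), had 266 and 284 FPKM in WT against 189.9 and 159.8 FPKM in KO. Its log2 fold change was -0.65 ± 0.24 (SE, unadjusted p = 0.04, adjusted p = 0.279 by limma), and it was the only complex III gene whose groups did not overlap. Its partner Uqcrc2 had 149 and 112 FPKM in WT against 95.3 and 141 FPKM in KO, and Uqcrfs1, the Rieske iron-sulfur protein, had 251 and 218 FPKM in WT against 176 and 241 FPKM in KO.

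In Uqcrc2 and Uqcrfs1 KO replicate 1 was the lowest library and KO replicate 2 lay between the WT libraries. Uqcr10 was the most abundant gene of the complex (924 and 1065 FPKM in WT against 680.5 and 977 FPKM in KO). Uqcrh and Uqcrb had the highest fold changes of the complex, 0.20 and 0.21 on the log2 scale, with standard errors of 0.32 and 0.37. Uqcrb turned to -0.19 when trends with transcript length and GC content were removed, both turned below 0 without KO replicate 2 (-0.08 and -0.12), and Uqcrh and Uqcrb have 1 and 3 near-identical genome copies. Cyc1, which encodes the cytochrome c1 of the same complex, is not covered by the name rule. This gene had 253 and 304 FPKM in WT against 178 and 221 FPKM in KO, without overlap. Ndufab1, also outside the rule, had 86.2 and 110.3 FPKM in WT against 72.1 and 89.5 FPKM in KO, with overlap.

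**Figure D2:**
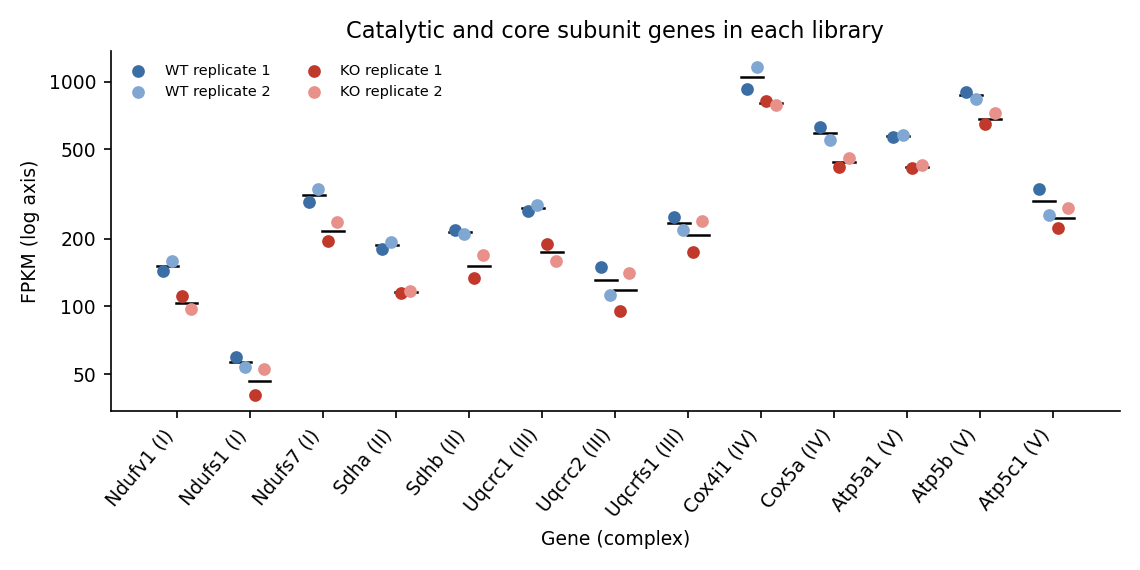
FPKM (vertical axis, log scale) of 13 catalytic and core subunit genes (horizontal axis, complex in brackets) in each library. Points are libraries and black bars are group means (n = 2). Sdha, Uqcrc1 and Ndufv1 have both KO libraries below both WT libraries, whereas in Uqcrc2 KO replicate 2, at 141 FPKM, lies between the WT libraries.

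Complex IV reduces oxygen to water, and its nuclear subunits surround a catalytic core made in the mitochondrion. Cox4i1, its main subunit 4 isoform and the gene with the highest mean of the complex over the 4 libraries, had 935 and 1164 FPKM in WT against 823 and 792 FPKM in KO, with a log2 fold change of -0.37 ± 0.26 (SE, adjusted p = 0.467 by limma). Cox5a had 629.7 and 549.6 FPKM in WT against 419.9 and 456 FPKM in KO, and Cox5b had 636 and 705 FPKM in WT against 540.1 and 615 FPKM in KO. None of the 3 overlapped between groups. Cox5a shares exon sequence with Gm17596 on the other strand, and Cox5b has 2 near-identical genome copies.

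Several subunits of complex IV exist as a broadly expressed isoform and a heart and skeletal muscle isoform, and both were abundant in this skin. The muscle isoform Cox6a2 (chromosome 7 from 135348949 to 135349880, 3 exons) had 989.8 and 895 FPKM in WT against 684 and 652 FPKM in KO, without overlap, and its log2 fold change of -0.49 ± 0.24 (SE, adjusted p = 0.349 by limma) was the lowest of the complex. Cox7a1 was nearly level with it, at -0.49. Cox7a1 was the lower gene with length and GC trends removed (-0.592 against -0.582) and without WT replicate 2 (-0.89 against -0.57). The exons of Cox6a2 overlap Itgad on the other strand. The broadly expressed Cox6a1 had 387 and 618 FPKM in WT against 516 and 556 FPKM in KO, with overlap. Its log2 fold change of 0.13 turned to -0.02 with median-ratio scaling and to -0.21 without WT replicate 1, and was 0.47 without WT replicate 2.

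Cox7a1, the muscle isoform of subunit 7a, had 446 and 255 FPKM in WT against 199.6 and 288 FPKM in KO. Its counterpart Cox7a2 had 149 and 147 FPKM in WT against 129 and 178 FPKM in KO, and its log2 fold change of 0.04 turned to -0.11 with median-ratio scaling and to -0.06 with upper-quartile scaling. Cox8b, the muscle isoform of subunit 8, had 1092 and 819 FPKM in WT against 756 and 897 FPKM in KO. The broadly expressed Cox8a had 505 and 667 FPKM in WT against 569 and 859.7 FPKM in KO. In Cox7a1, Cox7a2, Cox8b and Cox8a the groups overlapped.

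The share of the muscle isoform within a set does not depend on how libraries were scaled. Cox6a2 made up 71.9% and 59.2% of Cox6a1 plus Cox6a2 in WT and 57.0% and 54.0% in KO. Cox7a1 made up 74.98% and 63.5% of Cox7a1 plus Cox7a2 in WT and 60.7% and 61.8% in KO. In both sets the KO libraries were lower than both WT libraries, and the log2 ratio of the isoforms differed by -0.63 and -0.53. For Cox8b of Cox8a plus Cox8b the shares of 68.4% and 55.1% in WT and 57.1% and 51.0% in KO overlapped (difference of the log2 ratio -0.47). The WT libraries differed from each other by more than the lower WT library did from the KO libraries in all 3 sets, and none of these shares can pass an exact permutation test with 2 mice per group.

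**Figure D3:**
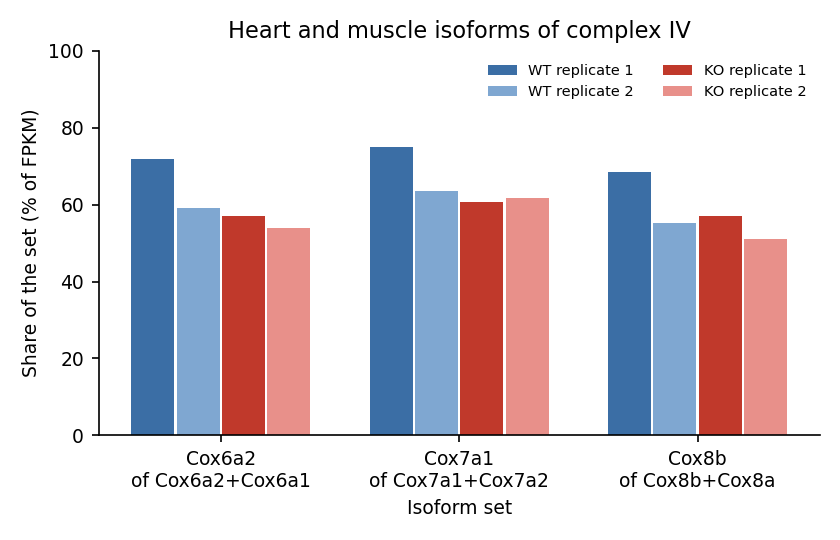
Share of the heart and skeletal muscle isoform in the summed FPKM of its set (vertical axis, percent) for 3 isoform sets of complex IV (horizontal axis). Bars are the 4 libraries. WT replicate 1 has the highest share in every set, 71.9% for Cox6a2, 74.98% for Cox7a1 and 68.4% for Cox8b.

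In the remaining isoform sets the groups overlapped. Cox4i2, the isoform known from lung and induced by low oxygen, stood at 2.04 and 3.23 FPKM in WT against 3.94 and 0.912 FPKM in KO, close to low values where the log2(FPKM + 1) scale understates change. Cox6b2, known from testis, had 8.48 and 6.37 FPKM in WT against 11.6 and 7.17 FPKM in KO, far under Cox6b1 (655 and 649 FPKM in WT against 569 and 666 FPKM in KO). Cox7b had 279.7 and 277 FPKM in WT against 201 and 374 FPKM in KO, so the KO libraries lay on either side of both WT libraries. The KO libraries also lay on either side for Ndufa4l2, a paralog of Ndufa4 that is induced by HIF-1, but in the reverse order. It had 179.6 and 120.4 FPKM in WT against 229 and 96.8 FPKM in KO. Its share of Ndufa4 plus Ndufa4l2 was 14.8% and 14.99% in WT and 22.7% and 10.1% in KO, and its exons overlap Shmt2 on the other strand.

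Cox7a2l was the only complex IV name with both KO libraries above both WT libraries, at 168 and 144 FPKM in WT against 184 and 222 FPKM in KO (log2 fold change 0.38 ± 0.25, SE, adjusted p = 0.445 by limma). As stated, it is described as a supercomplex factor, and its function in this strain was not tested.

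Complex V makes ATP from the proton gradient. Its catalytic head is built of the alpha subunit Atp5a1 and the beta subunit Atp5b around the central stalk of Atp5c1. Atp5a1 (chromosome 18 from 78012507 to 78021607, 12 exons) had 568 and 582 FPKM in WT against 413 and 425 FPKM in KO, with a log2 fold change of -0.46 ± 0.23 (SE, adjusted p = 0.359 by limma). Atp5b (chromosome 10 from 127520363 to 127527444, 10 exons) had 899.6 and 843 FPKM in WT against 646 and 724 FPKM in KO, with a log2 fold change of -0.35. Neither overlapped between groups.

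The stalk gene Atp5c1, at 334 and 254 FPKM in WT against 223 and 273 FPKM in KO, did overlap. The proton-carrying ring of subunit c is made from 3 genes for the same mature protein. Atp5g3 supplied 64.8% and 66.6% of their summed FPKM in WT and 66.1% and 66.3% in KO, with overlap between the groups. Atp5g1 and Atp5g2, which have 1 and 3 near-identical genome copies, had log2 fold changes of -0.28 and 0.06. The value of Atp5g1 was -0.09 without KO replicate 1 and -0.10 without WT replicate 1. That of Atp5g2 turned to -0.08 with median-ratio scaling, -0.04 with upper-quartile scaling and -0.12 without KO replicate 2. Atp5h, a stator subunit with 3 near-identical copies, had 197 and 173 FPKM in WT against 178 and 226 FPKM in KO.

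Atp5s, the factor that is no subunit, had the highest log2 fold change of all members, 0.76 ± 0.31 (SE, unadjusted p = 0.056, adjusted p = 0.298 by limma). It stood at 3.96 and 3.48 FPKM in WT against 5.40 and 8.96 FPKM in KO, far below the other genes named for complex V. Its log2 fold change was 0.28 with length and GC trends removed, where Cox8a was at 0.2811, and 0.44 without KO replicate 2, and without WT replicate 1 it was 0.83, below the 1.17 of Ndufc1, so its rank depended on these choices.

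Other mitochondrial gene lists are given by their counts and medians, and their differences from the subunits were not tested. Of 17 citrate cycle genes, including pyruvate dehydrogenase, 15 were lower and 13 did not overlap (76.5%, against 20.5% of all genes), with a median log2 fold change of -0.46 and 2 genes lower with an unadjusted p under 0.05 (11.8%, against 6.22% of all genes). Among these was Idh3g, a subunit of the NAD-linked isocitrate dehydrogenase, which was chosen after its values were seen (112 and 140.3 FPKM in WT against 65.7 and 84.0 FPKM in KO). The limma adjusted p of Idh3g was 0.274. The highest log2 fold change of the list was that of Suclg2, 0.04 (adjusted p = 0.951 by limma). The citrate cycle list was lower in both KO libraries, with medians of -0.44 in KO replicate 1 and -0.34 in KO replicate 2.

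Genes that build the complexes had medians between -0.13 and 0.05, which depended on the scaling and on single libraries. The 8 complex I assembly factors had a median log2 fold change of 0.05, from -0.26 for Ndufaf6 to 0.52 for Ndufaf4, and the median turned to -0.09 with median-ratio scaling, -0.05 with upper-quartile scaling and -0.17 without KO replicate 2. The 31 other assembly factors had a median of -0.13, from -0.43 for Ecsit to 1.88 for Acad9, which also serves fatty acid oxidation and had 13.1 and 10.8 FPKM in WT against 27.2 and 78.5 FPKM in KO. Their median was -0.27 with median-ratio and -0.23 with upper-quartile scaling, 0.087 without KO replicate 1 and 0.0096 without WT replicate 1. The 15 genes of the electron carriers cytochrome c and ubiquinone, the electron transfer flavoprotein, Cyc1 and Ndufab1 had a median of -0.02, from -0.52 for Coq9 to 1.94 for Pdss1. This median was -0.17 with median-ratio scaling, -0.30 with length and GC trends removed, -0.33 with KO replicate 2 left out and 0.14 with KO replicate 1 left out, and the subunits had -0.34, -0.33, -0.33 and -0.03 in the same settings.

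Factors that drive transcription of mitochondrial genes were not lower as a list. The median over 13 tested genes was 0.20 on the log2 scale, from -0.48 for Polrmt, the mitochondrial RNA polymerase, to 0.65 for Gabpb1, a GABP subunit. It was 0.066 with median-ratio scaling, 0.069 without KO replicate 2 and 0.40 without WT replicate 1. Ppargc1a, the coactivator of mitochondrial biogenesis, had 2.56 and 1.36 FPKM in WT against 1.57 and 1.37 FPKM in KO, and its nuclear partner Esrra had 38.3 and 44.4 FPKM in WT against 45.5 and 48.9 FPKM in KO. Both were chosen after their values were seen.

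The 9 tested carriers and uncouplers of the inner and outer membrane had a median of -0.09 (-0.23 with median-ratio scaling and 0.08 without KO replicate 1). Ucp3, an uncoupling protein of muscle, was the lowest at -1.08 (46.4 and 61.5 FPKM in WT against 26.3 and 23.4 FPKM in KO), and Atpif1, the inhibitor of ATP synthase, the highest at 0.95 (48.5 and 43.5 FPKM in WT against 69.3 and 116 FPKM in KO). Their adjusted p were 0.248 and 0.264 by limma. The 78 mitochondrial ribosome genes had a median of 0.10 (-0.04 with median-ratio scaling and -0.07 without KO replicate 2), from -0.52 for Mrpl2 to 0.54 for Mrpl41, with 9 genes below and 9 above without overlap (11.5% each), which is under the 20.5% and 35.3% of all genes. The 80 tested cytosolic ribosome genes had a median of 0.50 (0.29 without KO replicate 2 and 0.70 without KO replicate 1), with 63 above without overlap (78.8%, against 35.3% of all genes). The ends of that list were Rpl3l, a muscle paralog (-0.72), and Rpl22l1 (1.11).

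Skeletal muscle markers were lower as well. Of 15 markers, 15 were lower, 10 did not overlap (66.7%, against 20.5% of all genes) and 5 had an unadjusted p under 0.05 (33.3%, against 6.22% of all genes), with a median log2 fold change of -0.68, from -1.46 for Ryr1 to -0.16 for Mb, the muscle oxygen store. The medians were -0.67 in KO replicate 1 and -0.64 in KO replicate 2. The 15 genes made up 7.76% and 6.88% of all FPKM in WT and 4.76% and 4.95% in KO, and none was at 0 in any library. For example, Ckm, the muscle creatine kinase, had 4407 and 4157 FPKM in WT against 2271 and 2738 FPKM in KO (adjusted p = 0.268 by limma). The part of muscle RNA in the subunit values was not tested.

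Other marker lists differed as well. Of the lists that belong to skin, 8 epidermal keratinocyte markers had a median log2 fold change of 0.96, from -0.70 for Lor to 1.65 for Krt15. Krt14 and Krt5, the keratins of the basal epidermis, stood at 1215 to 1293 and 764 to 765 FPKM in WT and at 2689 to 2735 and 1664 to 1728 FPKM in KO, so the labelled tissue was present in every library. The 8 tested hair follicle markers had a median of 2.56 (Msx2 1.19 to Krt27 2.92) and the 5 sebaceous gland markers of -0.12 (Fasn -2.11 to Elovl3 4.15). The medians were -0.96 for 6 fibroblast markers (Col1a1 -1.32 to Pdgfra 0.04), -1.18 for 5 endothelial markers (Cdh5 -1.56 to Tek -0.62), -2.56 for 6 macrophage markers (Cd14 -3.67 to Mrc1 -1.40) and -2.09 for 7 adipocyte markers (Adipoq -2.69 to Pparg -0.11). The 2 KO libraries differed in most of these lists. Against the WT mean, KO replicate 1 and KO replicate 2 had medians of -0.09 and -2.72 for endothelial, -0.68 and -3.68 for adipocyte, -1.36 and -3.74 for macrophage, 1.54 and 0.47 for keratinocyte and -0.64 and 0.40 for sebaceous gland markers.

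Brown fat is another tissue rich in these complexes. Its defining gene Ucp1 did not exceed 0.682 FPKM in any library and was not tested, and the 3 tested brown fat markers ran from -0.96 for Cpt1b, which muscle also expresses, to 2.97 for Cidea, with a median of 0.10 that turned to -0.15 without KO replicate 1, -0.07 without WT replicate 2 and -0.24 with length and GC trends removed. Cidea had 11.3 and 15.1 FPKM in WT against 44.6 and 267 FPKM in KO. Like it, Elovl3 and Far2 of the sebaceous gland list were highest in KO replicate 2, whereas Fasn was lowest there. The cell type that Cidea came from was not tested. The part of the cell types above in the subunit values was not tested either.

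**Figure D4:**
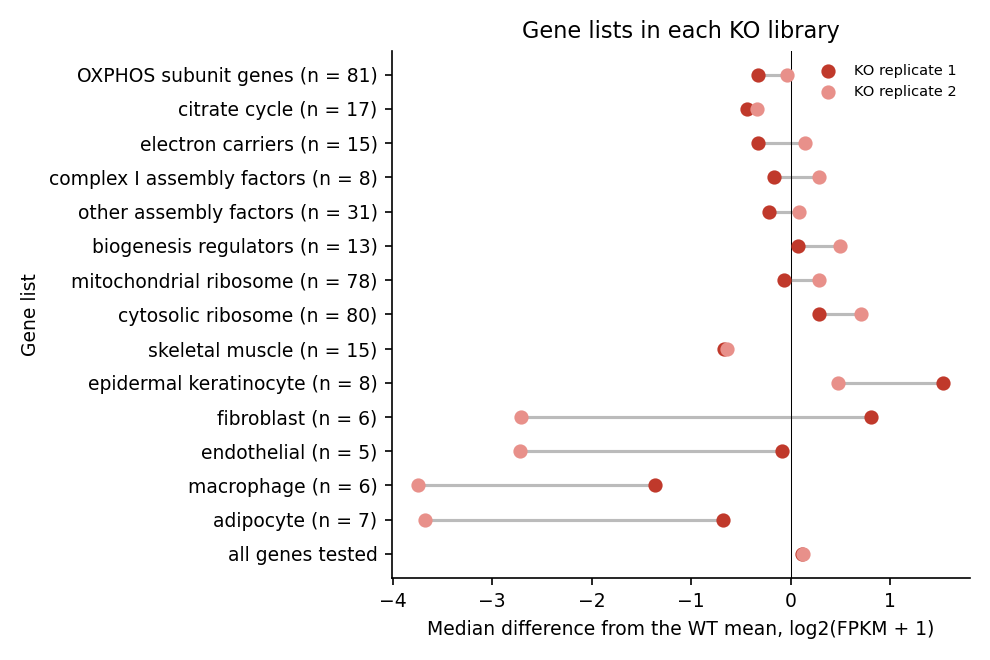
Median difference of each gene list from the WT mean on the log2(FPKM + 1) scale (horizontal axis) in KO replicate 1 and KO replicate 2, for lists of mitochondrial genes and cell type markers (vertical axis, number of tested genes in brackets). Points are the 2 libraries, joined by a line. Skeletal muscle lies at -0.67 and -0.64 and the citrate cycle at -0.44 and -0.34, whereas the OXPHOS subunit genes lie at -0.33 and -0.03.

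The members' differences were also set against the base composition of their transcripts. Over the 81 tested members, Spearman's rho between transcript GC content and the difference from the WT mean was -0.51 for KO replicate 2 and -0.16 for KO replicate 1, and between GC content and the difference of WT replicate 2 from WT replicate 1 it was 0.45. The points are genes that share their libraries, so no p is given. Over 11553 tested genes with a known transcript the values were -0.31, -0.11 and 0.48, in the same order. Members with low GC content (27 genes, 39.0% to 49.4%) had a median log2 fold change of -0.03 and did not overlap, with KO below WT, in 5 genes. The middle 27 genes had a median of -0.21 and did not overlap in 12, and those with high GC content (27 genes, 55.0% to 61.1%) had a median of -0.24 and did not overlap in 15, where the share over all genes was 20.5%. With transcript length rho was -0.19, -0.19 and -0.03. The part of GC content in the subunit values was not tested. With trends of length and GC content removed together within each library, the median of the members was -0.33 and that of all genes -0.01.

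**Figure D5:**
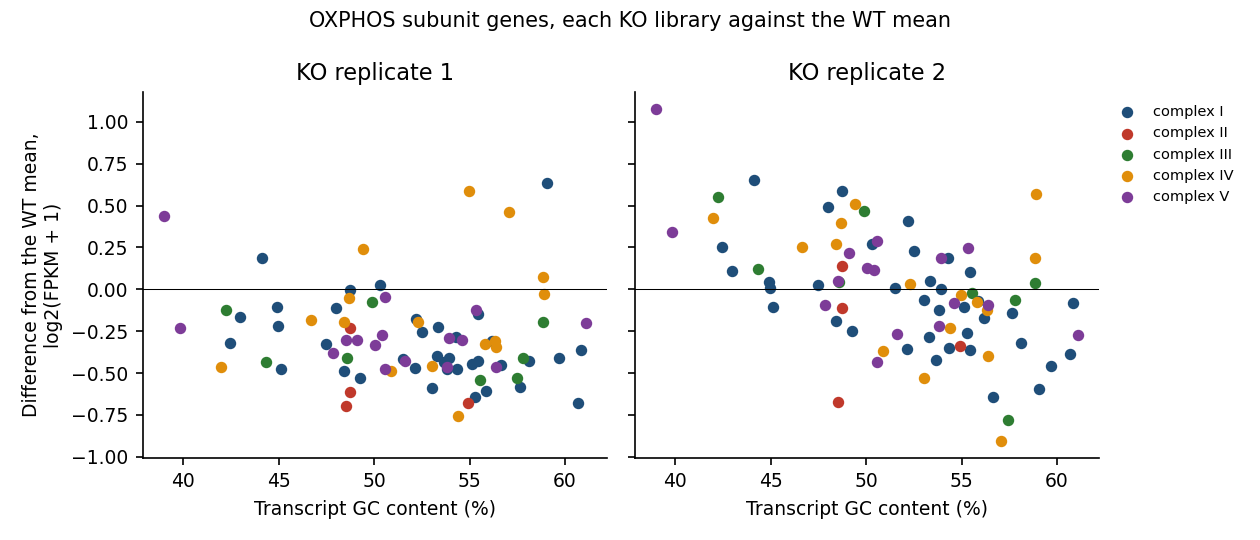
Difference of each tested OXPHOS subunit gene from the WT mean on the log2(FPKM + 1) scale (vertical axis) against the GC content of its transcript in percent (horizontal axis), for KO replicate 1 (left) and KO replicate 2 (right). Points are genes, coloured by complex. In KO replicate 2 the genes of low GC content lie above 0 more often, with a median of 0.14 for the lowest tercile and -0.12 for the highest, and in KO replicate 1 most genes lie below 0 at any GC content.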

How the data were processed

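RNA-seq values of BLM-treated skin were analysed in 4 libraries, 2 from GSDMD KO and 2 from WT mice, grouped by their titles. The submitters' processing notes name HISAT2 version 2.0.1, StringTie version 2.0.6 and build mm9, and the paper's methods name counting per gene and DESeq2. The deposited table nevertheless holds FPKM, which the authors had divided by transcript length and depth: 99.7% of its values above 0 are not whole. The program that made these FPKM is not given in the sources used here, and neither is the use of strand in counting. A count model was therefore not used.

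On the log2(FPKM + 1) scale, limma (version 3.58.1, R version 4.3.3) was fitted to the 13027 genes that reached 1 FPKM in 2 or more libraries, using a mean-variance trend and Benjamini-Hochberg adjustment over all of them. Calls needed an adjusted p under 0.05 with a log2 fold change beyond 1 in either direction, the limits of the paper's methods. The fit was first tested on simulated data. SE and p-values use a variance that limma drew toward the trend over all genes tested, not that gene's own spread alone. They cover the spread between these mice only. Same-numbered libraries were checked for pairing (correlation of deviations -0.20 over 13027 genes) and treated as unpaired.

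Members and gene lists were chosen with earlier results of these data known, so no list was given a test. Named members are core subunits, isoform sets, the most abundant gene and the 2 highest and 2 lowest fold changes of each complex, and members that are untested or are no subunit. Of other lists the highest and the lowest gene are named. Some genes that this rule would name are not reported here. Loci and transcripts come from GENCODE for mm9, and table starts, of which 49.1% of those compared were 1 below the annotated start and 2.86% equal to it, were raised by 1. Genome copies (at least 95% identity over at least 80% of the transcript) were found with BLAST version 2.17.0 for 14 members, and exons on the other strand for 15. Depth was estimated from 2710 genes with transcripts of at least 2000 bases: 1 fragment on 1 kb was worth 0.0572 to 0.0783 FPKM, and 3 fragments, taken as the floor, 0.172 to 0.235 FPKM. Alternatives were other scalings, pseudocounts, filters, no trend, removal of length trends, a replicate block and leaving out each library, and, chosen after seeing the data, removal of length and GC trends. Python (version 3.11.15) with pandas (version 2.3.3) was used for the tables.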

Additional observations from a re-analysis of the deposited data

How the results depend on the processing

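The median log2 fold change of the OXPHOS subunit genes was under 0 in every alternative run. It was -0.34 with median-ratio scaling, where the median of all genes was -0.01 in place of 0.11, and -0.33 with length and GC trends removed. Leaving out 1 library moved it between -0.33 (without KO replicate 2) and -0.03 (without KO replicate 1), which is by over 1.5 times, and the median lay 0.159 to 0.439 below that of all genes. By complex, leaving out a library gave -0.41 to -0.080 for complex I, -0.65 to -0.23 for complex II, -0.41 to 0.04 for complex III, -0.19 to -0.0018 for complex IV and -0.30 to 0.083 for complex V. Median-ratio scaling gave -0.39, -0.58, -0.32, -0.20 and -0.26 for complexes I to V, removal of length and GC trends gave -0.36, -0.52, -0.30, -0.23 and -0.26, and upper-quartile scaling gave -0.15 for complex IV. The number of members with an unadjusted p under 0.05 and lower in KO was 7 of 81 with median-ratio scaling (8.57% of all genes), 9 with length and GC trends removed (8.99% of all genes) and 0 to 2 without a library (1.94% to 15.7% of all genes), and higher in KO 0 to 1 without a library (2.16% to 16.5% of all genes). With the replicate number as a block, 0 members in place of 2 were lower, and same-numbered libraries share only a number. Over all genes 0 were called in each fit of 4 libraries and 0 to 2058 without a library, 2058 without KO replicate 1 and 43 without KO replicate 2, where the lone KO library is assumed to vary like the WT libraries. No OXPHOS subunit gene was called under any setting. Of 45 named members, 6 changed sign in a fit of all 4 libraries and 21 without a library. Where no other value shows it, the cause was not tested.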
